A study of Homo sapiens with 14 samples.

Results

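Cadherins and claudins are the proteins by which epithelial cells hold to their neighbours, and 10 of their genes were followed here: CDH1, CDH2 and CDH17 (cadherins), CLDN1, CLDN3, CLDN4, CLDN5 and CLDN7 (claudins), OCLN (occludin) and TJP1 (zonula occludens 1, ZO-1). The genes were found by symbol, and all 10 were present among the 36601 genes of the single-cell matrices and the 60624 genes of the bulk tables. The study grew SW620, a line from a lymph node metastasis of a colorectal cancer, in long-term culture (LTC) without passage, in which colonies first expand and cells later leave them. SW620-TET2CD is the same line with the catalytic domain of TET2, the enzyme that oxidises methylated cytosine, overexpressed. The cells of the single-cell libraries labelled SW620 are given in the study as carrying an empty FLAG vector, which its text does not say of the bulk libraries. Single-cell RNA-seq was made of both lines on days 6, 9, 12 and 15, with 1 library for each line and day. Bulk RNA-seq was made of SW480, from the primary tumour of the same patient, and SW620 on day 6, and of cells inside and outside the colonies of both SW620 lines on day 15, again with 1 library each. Inside and outside cells were separated by a strainer after a mild enzyme treatment, and the purity of the fractions was not measured here. Each line is 1 established cell line, no line and day has a replicate library, and p-values here measure the spread between libraries of different days or lines, which may be technical.

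As background, E-cadherin (CDH1) joins cells at adherens junctions and is tied to actin through catenins, and its loss in favour of N-cadherin (CDH2) is the textbook sign of epithelial-mesenchymal transition (EMT). Claudins form the strands of the tight junction nearer the lumen, occludin lies in the same strands, and ZO-1 is the scaffold below them. In the intestine claudins 1, 3, 4 and 7 and LI-cadherin (CDH17) belong to the epithelium, whereas claudin 5 is best known from blood vessels.

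On GRCh38 with the GENCODE annotation, CDH1 lies on chromosome 16 (68737292 to 68835537, plus strand) and CLDN7 on chromosome 17 (7259903 to 7263983, minus strand). CLDN3 (73768997 to 73770270, minus strand) and CLDN4 (73799542 to 73832690, plus strand) are neighbours on chromosome 7, with 29272 bases between them. CLDN1 lies on chromosome 3 (190305707 to 190322446, minus strand) and CLDN5 on chromosome 22 (19523024 to 19527545, minus strand). Exons of CLDN7 overlap exons of ELP5 on the opposite strand, and the bulk kit does not mark strand, so reads of the pair cannot be told apart there. A protein-coding gene annotated on the same strand (ENSG00000262302) also shares exon sequence positions with CLDN7, so no assay used here separates the pair by strand. CDH1 and CDH2 likewise overlap noncoding genes on the opposite strand. ELP5 had 57.3 to 72.6 TPM (a level scaled by transcript length, with the same total in every library) in the 6 bulk libraries, while CLDN7 had 13.7 to 151 TPM.

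TET2 acts on CpG sites, and CLDN7 was called higher and CLDN1 lower in SW620-TET2CD, so the 250 bases before the RefSeq start of each are shown with every CpG in capitals (build GRCh38.p14, 5′ to 3′ along the gene's strand). RefSeq promoters were matched for 7 of the 10 genes (CDH2, CLDN1, CLDN3, CLDN4, CLDN7, OCLN and TJP1).
CLDN7 (chr17:7263214-7263463, minus strand): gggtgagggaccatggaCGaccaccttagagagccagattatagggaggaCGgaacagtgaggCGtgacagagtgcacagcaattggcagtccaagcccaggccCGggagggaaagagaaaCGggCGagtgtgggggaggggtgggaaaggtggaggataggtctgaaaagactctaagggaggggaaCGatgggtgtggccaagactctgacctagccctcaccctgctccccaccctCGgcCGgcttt
CLDN1 (chr3:190322447-190322696, minus strand): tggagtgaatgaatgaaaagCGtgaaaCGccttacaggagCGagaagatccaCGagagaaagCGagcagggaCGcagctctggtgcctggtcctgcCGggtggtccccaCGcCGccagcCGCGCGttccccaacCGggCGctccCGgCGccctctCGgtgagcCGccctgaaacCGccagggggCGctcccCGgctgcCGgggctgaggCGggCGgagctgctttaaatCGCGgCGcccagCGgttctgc
The CLDN7 stretch held 9 CpG and the CLDN1 stretch 28. The median over 27305 promoters was 11, and 53.8% of them had at least as many as CLDN7 and 15.5% at least as many as CLDN1. CLDN3 had 19, CLDN4 had 4, OCLN 24 and TJP1 26. No methylation was measured in these files, so the counts describe sequence only.

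The repressors SNAI1, SNAI2, ZEB1 and ZEB2 bind E-boxes of the letters CACCTG or CAGGTG. Among the 7 matched promoters the motif, searched on both strands (one word is the reverse complement of the other), was found in the 250 upstream bases of OCLN at -33 and TJP1 at -88 from the start, against 17.5% of all promoters of that length. These stretches are shown, with the motif in capitals, because they hold it. CDH1, CDH17 and CLDN5 had no matched promoter and were not searched. Whether the motif bears on the level of a gene was not tested.
OCLN (chr5:69492297-69492546, plus strand): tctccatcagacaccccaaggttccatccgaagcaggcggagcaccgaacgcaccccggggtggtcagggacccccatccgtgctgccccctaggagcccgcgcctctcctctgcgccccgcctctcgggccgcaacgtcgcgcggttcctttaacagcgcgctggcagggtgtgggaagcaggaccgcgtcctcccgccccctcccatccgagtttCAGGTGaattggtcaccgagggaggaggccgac
TJP1 (chr15:29969050-29969299, minus strand): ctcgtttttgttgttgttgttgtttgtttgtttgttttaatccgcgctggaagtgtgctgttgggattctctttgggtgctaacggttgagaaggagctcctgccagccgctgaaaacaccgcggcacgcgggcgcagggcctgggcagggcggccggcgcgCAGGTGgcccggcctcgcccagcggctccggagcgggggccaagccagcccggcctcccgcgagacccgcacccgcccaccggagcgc
A match is a description of letters and not a site shown to be bound.

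Of 67056 cell barcodes, 48282 were kept, those with 1000 to 20000 UMIs from 200 to 4500 genes and a mitochondrial share of no more than 10%. Kept UMIs ranged from 48186195 to 74185723 per library and median UMIs per cell from 6640 to 13479, and 297 barcode sequences occurred in more than 1 library. Bulk expected counts summed to 16470176 to 25840563. TET2, which checks the labels, had 2.11 to 3.90 CPM (UMIs of the gene scaled to the same total in every library, not by length) in the 4 SW620 libraries and 40.2 to 107 in the 4 SW620-TET2CD libraries. Epithelial markers were high throughout (EPCAM 496 to 639 CPM, KRT8 2991 to 4327), and PTPRC, CD3E, COL1A2, COL3A1, PDGFRA, SOX10 and KDR stayed at or below 0.0946 CPM. Other genes of the same lists were higher. PECAM1 reached 1.27 CPM, VWF 0.664, DCN 0.431, PDGFRB 0.310 and CD14 0.296. The 7 fibroblast genes summed to 16.6 to 28.7 CPM early and 8.37 to 12.9 late, mostly LUM (4.31 to 27.2) and COL1A1 (1.15 to 3.35), and the 6 leukocyte genes to 5.61 to 16.2 early and 13.9 to 31.8 late, mostly LYZ (5.32 to 31.5). The endothelial list of 7 genes summed to 3.93 to 4.89 CPM on the early days and 12.2 to 28.7 on the late days, most of it from EGFL7 (2.52 to 27.9 CPM), and CLDN5 is itself on that list. The part of these genes in the results was not tested.

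N-cadherin was not seen. CDH2 had 0 UMIs in each of the 8 single-cell libraries and an expected count of 0 in each of the 6 bulk libraries. With 3 UMIs as the limit that a count of 0 allows, its level lay below 0.0404 to 0.0623 CPM, which covers counting error only. CDH2 could therefore not be tested in any comparison.

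The order of levels within a library can be read from TPM, which is scaled by length. CLDN4, a claudin of tight epithelia, stood first among the 10 genes in 5 of the 6 bulk libraries (121 to 174 TPM in those), and CLDN7 was first in SW620-TET2CD cells outside the colonies (151 TPM, with CLDN4 at 100). OCLN had 10.2 to 15.3 TPM and CLDN3 11.3 to 29.0 TPM. CDH17, CLDN5 and CDH2 took the last 3 places in 5 libraries, and in the sixth, that of SW620-TET2CD cells outside the colonies, CLDN5 stood at 25.1 TPM, above OCLN (10.8) and CLDN3 (24.0). With 1 library per condition, no neighbours in these orders can be said to differ beyond their spread.

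The days were compared first, to see how RNA of the junction genes differs as colonies age and cells leave them. Protein and contacts between cells were not measured here, and RNA need not follow them. CDH1, the 4 epithelial claudin genes and OCLN all had higher CPM on days 12 and 15 than on days 6 and 9, in both lines. CDH1 had 24.7 and 29.0 CPM in SW620 on days 6 and 9, then 60.9 and 93.4 on days 12 and 15. In SW620-TET2CD it had 31.4, 38.9, 73.7 and 119 CPM on the same days. Every late library thus lay above every early one, and the mean rose from 31.0 ± 5.98 to 86.8 ± 25.4 CPM (SD, n = 4 libraries each). Libraries of both lines from the same day were counted as independent, here and in the fits over days. An effect of handling on a day cannot be told apart from that of the day. Separation of early and late libraries was counted for the members only, and it may be common among all genes.

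The fitted rise of CDH1 was 1.38 ± 0.19 on the log2 scale (SE, edgeR quasi-likelihood test with line as a block, Benjamini-Hochberg adjusted p = 0.000183). The ratio of late to early means was 2.88 in SW620 and 2.74 in SW620-TET2CD. Of the 17478 genes tested, 29.1% were called higher and 27.9% lower on the late days, so a call as such is common here. Among the 9 tested members, 7 were called higher and 1 lower, and TJP1 was not called. One of the 7, CLDN5, passed the filter on low counts only through the late SW620-TET2CD libraries, and of the other 8 tested members 6 were called higher.

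**Figure D1:**
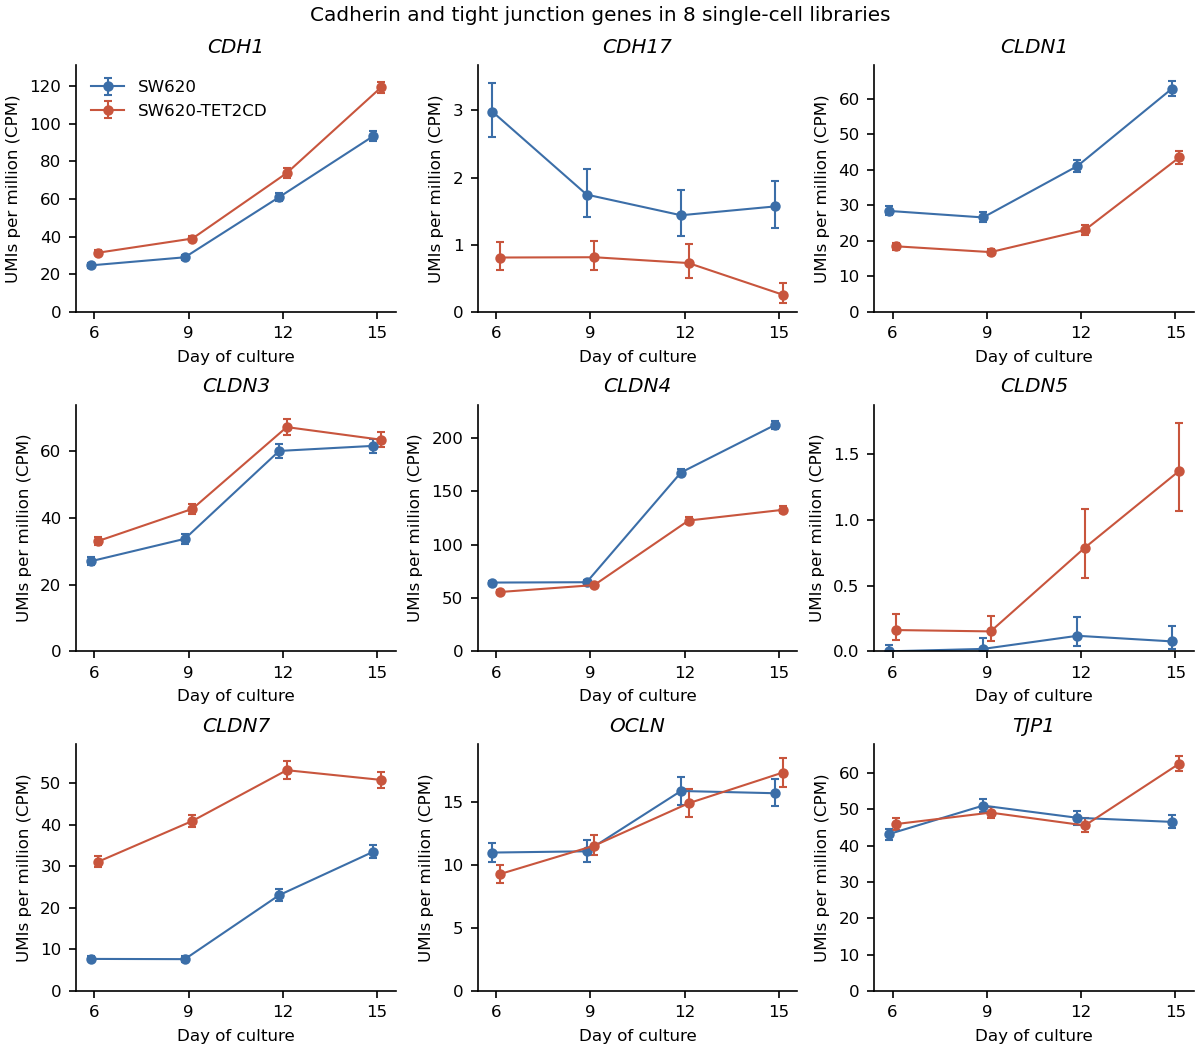
CPM (linear axis from 0) of 9 genes against day of culture in SW620 (blue) and SW620-TET2CD (red), 1 library per point, with 95% Poisson intervals that cover counting error only. CDH1, CLDN3, CLDN4 and OCLN are above all early libraries in all late ones, on each day SW620-TET2CD is above SW620 for CLDN7 and below it for CLDN1, and TJP1 stays between 43.1 and 62.5 CPM.

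CLDN4 had the highest CPM of the 5 claudins followed here, in each library. It had 64.5 and 64.8 CPM in SW620 on days 6 and 9, and 168 and 212 on days 12 and 15. In SW620-TET2CD it had 55.6, 62.1, 123 and 133 CPM. The early libraries of both lines were close together, the late ones were all above them, and SW620 had the higher value on both late days. The fitted rise was 1.22 ± 0.15 (log2, edgeR quasi-likelihood, adjusted p = 0.000112).

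CLDN3, its neighbour on chromosome 7 and likewise a barrier-forming claudin, had 27.0, 33.7, 60.1 and 61.6 CPM over the 4 days in SW620. In SW620-TET2CD the values were 33.1, 42.7, 67.2 and 63.4 CPM. Late and early libraries did not overlap, and the level was about as high on day 12 as on day 15. The fitted rise was 0.78 ± 0.14 (log2, edgeR quasi-likelihood, adjusted p = 0.000736).

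CLDN7, a claudin of the lateral membrane as well as the junction, began low in SW620, with 7.68, 7.63, 23.0 and 33.5 CPM over the days. In SW620-TET2CD it had 31.1, 40.9, 53.1 and 50.8 CPM. Within each line the late libraries were above the early ones, but the late SW620 library of day 12 was below both early SW620-TET2CD libraries. The fitted rise was 1.09 ± 0.28 (log2, edgeR quasi-likelihood, adjusted p = 0.00768), and it was no longer called when line was left out of the fit (0.76, adjusted p = 0.215).

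CLDN1, a barrier claudin often raised in colorectal cancer, had 28.4, 26.6, 41.0 and 62.8 CPM in SW620. In SW620-TET2CD it had 18.4, 16.8, 23.1 and 43.5 CPM. The late libraries were above the early ones within each line, with a ratio of means of 1.89 in both. The fitted rise was 0.80 ± 0.20 (log2, edgeR quasi-likelihood, adjusted p = 0.00608).

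OCLN, the smallest of the called rises, had 11.001, 11.1, 15.9 and 15.7 CPM in SW620 and 9.29, 11.5, 14.9 and 17.4 CPM in SW620-TET2CD. All late libraries were above all early ones. The fitted rise was 0.45 ± 0.11 (log2, edgeR quasi-likelihood, adjusted p = 0.00538).

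TJP1, the scaffold, was the tested member without a call. It had 43.1, 51.0, 47.6 and 46.5 CPM in SW620 and 45.9, 49.1, 45.5 and 62.5 CPM in SW620-TET2CD. Early and late libraries overlapped in both lines, and the fitted difference was -0.03 ± 0.12 (log2, edgeR quasi-likelihood, adjusted p = 0.843). In CPM the highest value was that of SW620-TET2CD on day 15, and the other 7 libraries lay between 43.1 and 51.0 CPM. CPM leaves out the TMM factors (scaling between libraries) of the fits, and the SW620-TET2CD library of day 15 had the largest factor (1.17).

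CDH17, the intestinal LI-cadherin, was the member called lower. It had 2.98, 1.75, 1.44 and 1.57 CPM in SW620 and 0.809, 0.813, 0.726 and 0.255 CPM in SW620-TET2CD, from 13 to 220 UMIs per library. Within each line both late libraries were below both early ones. The fitted fall was -0.79 ± 0.31 (log2, edgeR quasi-likelihood, adjusted p = 0.0462). The call sat at the threshold and was lost without any one of 6 of the 8 libraries (both of day 6, both of day 15, SW620-TET2CD of day 9 and SW620 of day 12), with adjusted p up to 0.167. It was also lost with upper-quartile factors (adjusted p = 0.1 by edgeR) and with line left out of the fit (0.291).

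CLDN5 was near the limit of detection. SW620 had 0, 1, 6 and 4 UMIs over the 4 days, and SW620-TET2CD 12, 11, 38 and 70 UMIs, which is 0.162, 0.152, 0.789 and 1.37 CPM. Cells with a CLDN5 UMI were at most 0.54% of a library. It passed the filter on low counts only through the group where it is high, so a difference was built into its fitted value of 2.67 ± 0.41 (log2, edgeR quasi-likelihood, adjusted p = 0.000363). The rise was not called in cells without mitotic UMIs (0.60, adjusted p = 0.378).

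Shares of cells with a UMI were compared at equal depth. With each cell thinned to 2000 UMIs (18 to 89 shallower cells left out per library), CDH1 was seen in 5.12% to 7.73% of cells on the early days and 11.6% to 22.3% on the late days. Without thinning the ranges were 17.8% to 31.6% and 43.5% to 54.9%. Thinned shares of CLDN4 were 10.6% to 12.2% on the early days and 21.9% to 34.0% on the late days. PTPRC, a leukocyte gene that these cells should lack, was seen in at most 0.0254% of cells of a library.

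Cells with mitotic transcripts were fewer on the late days. Cells with a UMI of MKI67, TOP2A, CCNB1, UBE2C or PLK1 made up 77.4% to 89.8% of kept cells on days 6 and 9 and 18.8% to 35.8% on days 12 and 15, without thinning. In cells without such a UMI the fitted late rise was 1.22 for CDH1, 1.07 for CLDN4, 0.74 for CLDN3, 1.09 for CLDN7, 0.99 for CLDN1 and 0.37 for OCLN (log2), all 6 called by edgeR. In cells with one the values were 1.07, 1.02, 0.64, 0.97, 0.76 and 0.41, again all called. Over all genes, 3352 of 15531 tested were called higher in cells without such a UMI and 4136 of 16374 in cells with one. A call was therefore common in both sets, and the part of dividing cells in the rises was not tested.

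The lines were compared next, to see which junction genes differ between them. With 1 line of each kind, an effect of TET2CD cannot be told apart from other differences between the lines. CLDN7 was higher and CLDN1 and CDH17 were lower in SW620-TET2CD than in SW620 on every day. The per-day ratio of CLDN7 was 4.04, 5.36, 2.31 and 1.52 on days 6, 9, 12 and 15. The fitted difference was 1.44 ± 0.26 (log2, edgeR quasi-likelihood test with day as a block, adjusted p = 0.00745). The ratio was largest on the early days and smallest on day 15.

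CLDN1 went the other way, with per-day ratios of 0.649, 0.633, 0.562 and 0.692. Its fitted difference was -0.76 ± 0.09 (log2, edgeR quasi-likelihood, adjusted p = 0.000404). CDH17 had ratios of 0.271, 0.466, 0.505 and 0.162, and a fitted difference of -1.67 ± 0.26 (log2, edgeR quasi-likelihood, adjusted p = 0.00336).

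Of the 16526 genes tested between the lines, 2.37% were called higher and 1.85% lower in SW620-TET2CD. Of the 8 tested members, 1 was called higher and 2 lower. Leaving day out of the fit reduced the calls over all genes from 696 to 46 and those among the members from 3 to 0.

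CDH1 was higher in SW620-TET2CD on all 4 days, with ratios of 1.21 to 1.34, but its fitted difference of 0.25 ± 0.09 did not pass (log2, edgeR quasi-likelihood, adjusted p = 0.221). It passed without either library of day 15 (0.32 without that of SW620, adjusted p = 0.043, and 0.31 without that of SW620-TET2CD, adjusted p = 0.0467). CLDN4 was lower on all 4 days, with ratios of 0.959 at the most and 0.625 at the least, and did not pass either (-0.45 ± 0.13, adjusted p = 0.0987 by edgeR, 0.0265 by DESeq2). CLDN3 (0.11 ± 0.11), OCLN (-0.14 ± 0.09) and TJP1 (-0.00 ± 0.09) did not pass, with adjusted p of 0.724, 0.558 and 0.995.

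CLDN5 was too low for the filter in this comparison. Its ratio between the lines was 6.67 on day 12 and 18.1 on day 15, from 38 against 6 and 70 against 4 UMIs.

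**Figure D2:**
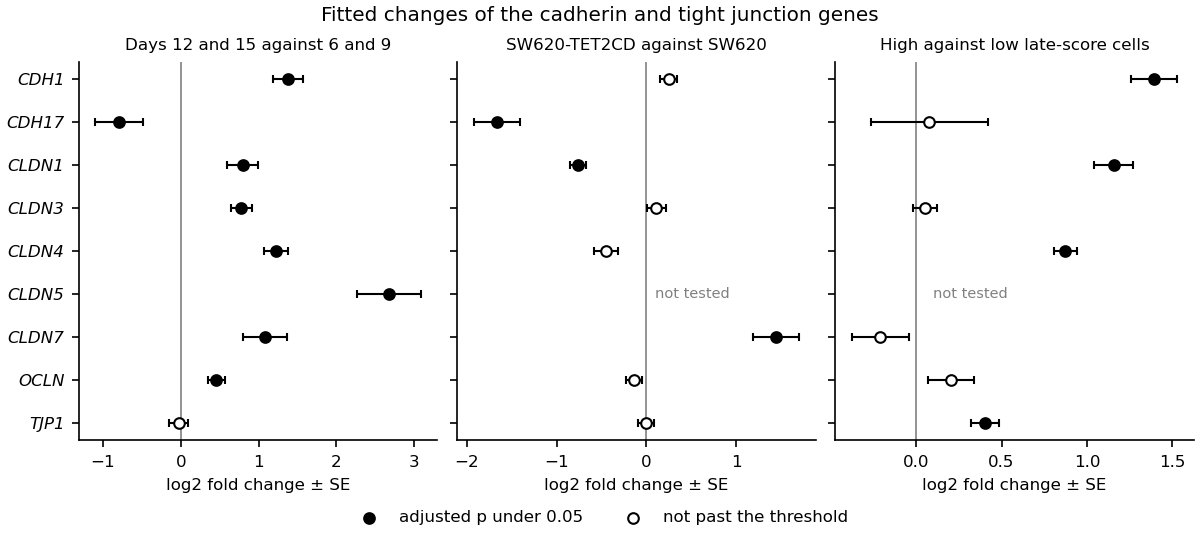
Fitted log2 fold changes (points) with standard errors (bars) of 9 genes in 3 edgeR comparisons, filled where the adjusted p was under 0.05 over all genes tested. Rises fill the panel of late against early days except for CDH17 and TJP1, the panel of the lines has CLDN7 on one side and CLDN1 and CDH17 on the other, and CDH1, CLDN1, CLDN4 and TJP1 are filled in the panel of late-score cells.

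Whether the late rise differs between the lines was tested as an interaction. The ratio of late to early means of CLDN7 was 3.69 in SW620 and 1.44 in SW620-TET2CD. The interaction was -1.48 ± 0.34 (log2) with an unadjusted p of 0.00149 and an adjusted p of 1 by edgeR. For CLDN4 the ratios were 2.94 and 2.17 and the interaction -0.56 ± 0.27, and for CDH1 it was -0.21 ± 0.39, both with an adjusted p of 1. Of the 17478 genes tested 0 were called (0% of genes, 141 at an unadjusted p under 0.05, 0 by DESeq2), so no difference between the lines in the rise of a member was shown. Without the filter on low counts 15 genes were called, CLDN7 among them (adjusted p = 0.00781).

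The make-up of the 5 claudins followed here differed between the lines. Other claudins are left out of these shares, among them CLDN11, which had 65.0 to 154 CPM in the 8 libraries. CLDN4 gave 48.8% to 57.4% of the UMIs of the 5 claudins in the SW620 libraries and 38.2% to 46.0% in those of SW620-TET2CD. CLDN7 gave 5.74% to 9.05% and 17.4% to 25.1%. These shares of UMIs do not overlap between the lines, and they follow from the levels above. The 5 claudins summed to 128 to 163 CPM on the early days and 267 to 370 on the late days.

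The transgene is uneven among cells, so the 10% of SW620-TET2CD cells with most TET2 per UMI were set against the other 90% of the same library. These cells held 67.5% to 78.9% of TET2 UMIs. CLDN7 had 93.8, 129, 157 and 113 CPM in them on days 6, 9, 12 and 15, and 24.0, 31.3, 41.3 and 43.6 CPM in the other cells, a ratio of 2.59 to 4.11 in the 4 libraries. The other cells were still above SW620 on each day.

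CLDN3 was 1.13 to 1.76 times as high in the cells with most TET2 and CDH1 1.17 to 1.69 times, each in 4 of 4 libraries. CLDN4 (0.96 to 1.16), OCLN (0.819 to 1.05), TJP1 (0.994 to 1.11) and CLDN1 (0.742 to 1.07) had ratios on both sides of 1. CDH17, lower in SW620-TET2CD than in SW620, had 1.33, 1.53, 0.816 and 0.753 CPM in the cells with most TET2 on the 4 days, from 4 to 11 UMIs, and 0.750, 0.734, 0.716 and 0.197 CPM in the other cells. It was thus the higher in the cells with most TET2 in 4 of 4 libraries, from few UMIs. CLDN5 had 11, 4, 15 and 37 UMIs in these cells, which is 91.7%, 36.4%, 39.5% and 52.9% of its UMIs in the library. All 12 CLDN5 UMIs of day 6 came from 3 cells, and the 11, 38 and 70 of the later days from 9, 21 and 31 cells. The median UMIs per cell were alike in the 2 sets (8602.5 to 12787 against 8292 to 12339). These are values of cells within 4 libraries, with no test. How many of all genes were higher in the cells with most TET2 in 4 of 4 libraries was not counted, so such agreement may be common.

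**Figure D3:**
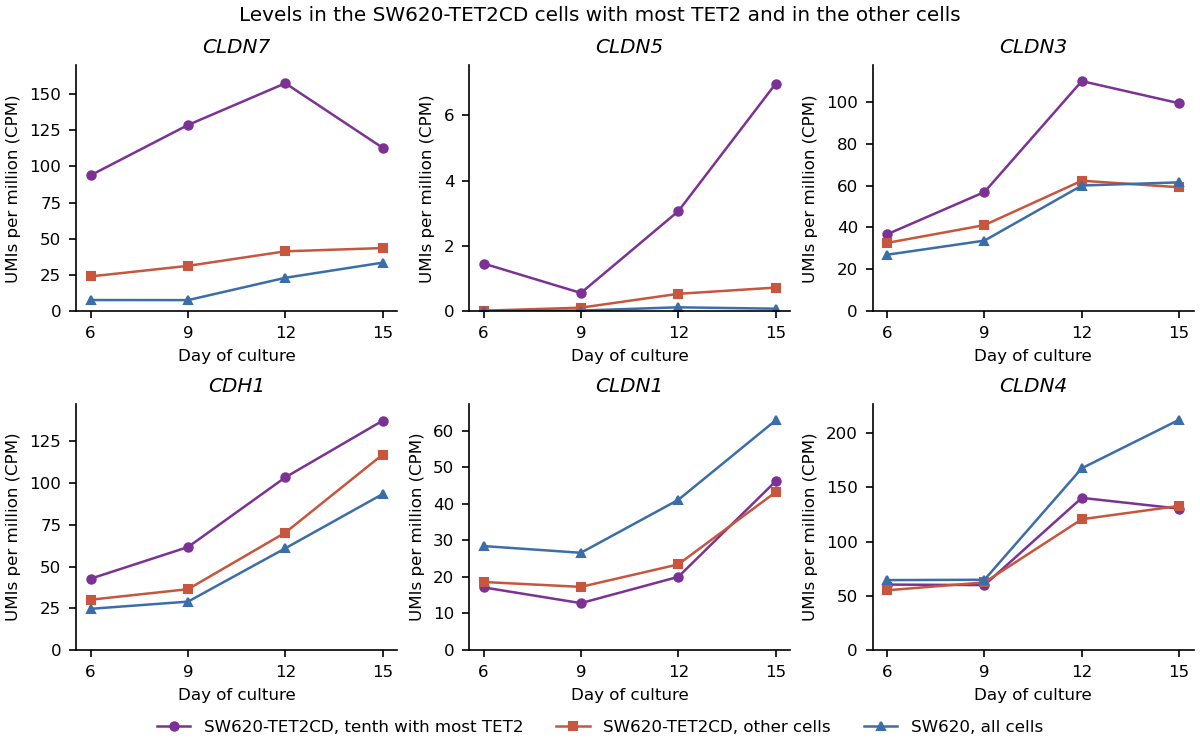
CPM (linear axis from 0) of 6 genes by day in the 10% of SW620-TET2CD cells with most TET2 per UMI (purple), in the other SW620-TET2CD cells (red) and in all SW620 cells (blue), 1 library per point and no error drawn. CLDN7 is 93.8 to 157 CPM in the cells with most TET2 and 24.0 to 43.6 in the others, whereas CLDN1 and CLDN4 lie close together in both sets.

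Without these cells the line difference of CLDN7 was 1.12 (log2, edgeR quasi-likelihood, adjusted p = 0.0239), that of CLDN1 -0.74 (adjusted p = 0.000602) and that of CDH17 -1.77 (adjusted p = 0.00405), an alternative chosen after seeing the data. The 3 calls remained, where 506 of 16432 genes tested were called. The cells left in still had 9.82 to 38.5 CPM of TET2, against 2.11 to 3.90 in SW620. Whether the differences follow the amount of TET2 was not tested.

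Within the late libraries, cells were ranked by a late score, the mean log level of AKAP12, SDCBP2, PLAUR, NDRG1 and DUSP5, 5 genes taken as marks of late cells from earlier results of these data. The score marks a range of cells and not a type, and the 25% of cells with the highest score were compared with the 25% with the lowest in each of 4 libraries. CDH1 had 97.4 against 43.5 CPM in SW620 on day 12 and 166 against 49.0 on day 15. In SW620-TET2CD it had 112 against 59.3 and 218 against 79.8 CPM. It was higher in the high range in 4 of 4 libraries, by 1.39 ± 0.14 (log2, edgeR quasi-likelihood test with library as a block, adjusted p = 4.8e-05).

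CLDN1 was also higher in the high range in 4 of 4 libraries. It had 56.7 against 31.9 and 83.9 against 42.8 CPM in SW620 on days 12 and 15, and 35.5 against 16.5 and 70.7 against 25.7 CPM in SW620-TET2CD. The fitted difference was 1.16 ± 0.11 (log2, edgeR quasi-likelihood, adjusted p = 4.7e-05). CLDN4 was 1.69 to 1.90 times as high in the high range (0.87 ± 0.07, adjusted p = 1.27e-05), and TJP1, not called over the days, was 1.17 to 1.42 times as high (0.40 ± 0.08, adjusted p = 0.00317 by edgeR, 0.0853 with library left out of the fit).

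CLDN3, OCLN and CLDN7 were not called along the score. CLDN3 had ratios of 0.943 to 1.06 between the ranges (0.05 ± 0.07 on the log2 scale, adjusted p = 0.564), and OCLN 0.914 to 1.36 (0.20 ± 0.13, adjusted p = 0.232). CLDN7 had a ratio of 0.755 and 1.01 in SW620 and of 1.21 and 0.491 in SW620-TET2CD on days 12 and 15 (-0.21 ± 0.17, adjusted p = 0.32 by edgeR).

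Of the 13819 genes tested between the ranges, 25.0% were called higher and 24.6% lower, and among the 8 tested members 4 were called higher and 0 lower. The ranges also differed in depth and quality. Cells of the high range had a median of 6391 to 11868 UMIs and 4.26% to 4.84% mitochondrial UMIs, against 7499 to 13243 UMIs and 5.66% to 7.70% in the low range. VIM, the intermediate filament of mesenchymal cells, was higher in the high range in 4 of 4 libraries, with 515 against 215 and 543 against 288 CPM in SW620 on days 12 and 15, and 596 against 176 and 332 against 148 CPM in SW620-TET2CD. The mitotic gene MKI67 was about level on day 12 (14.7 against 14.3 and 39.6 against 35.6 CPM in SW620 and SW620-TET2CD) and lower in the high range on day 15 (23.7 against 46.9 and 20.1 against 60.5 CPM). The part of depth, quality, VIM or MKI67 in the result was not tested. On day 12 all cells of the low range had a score of 0, so the low range was cut within ties.

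**Figure D4:**
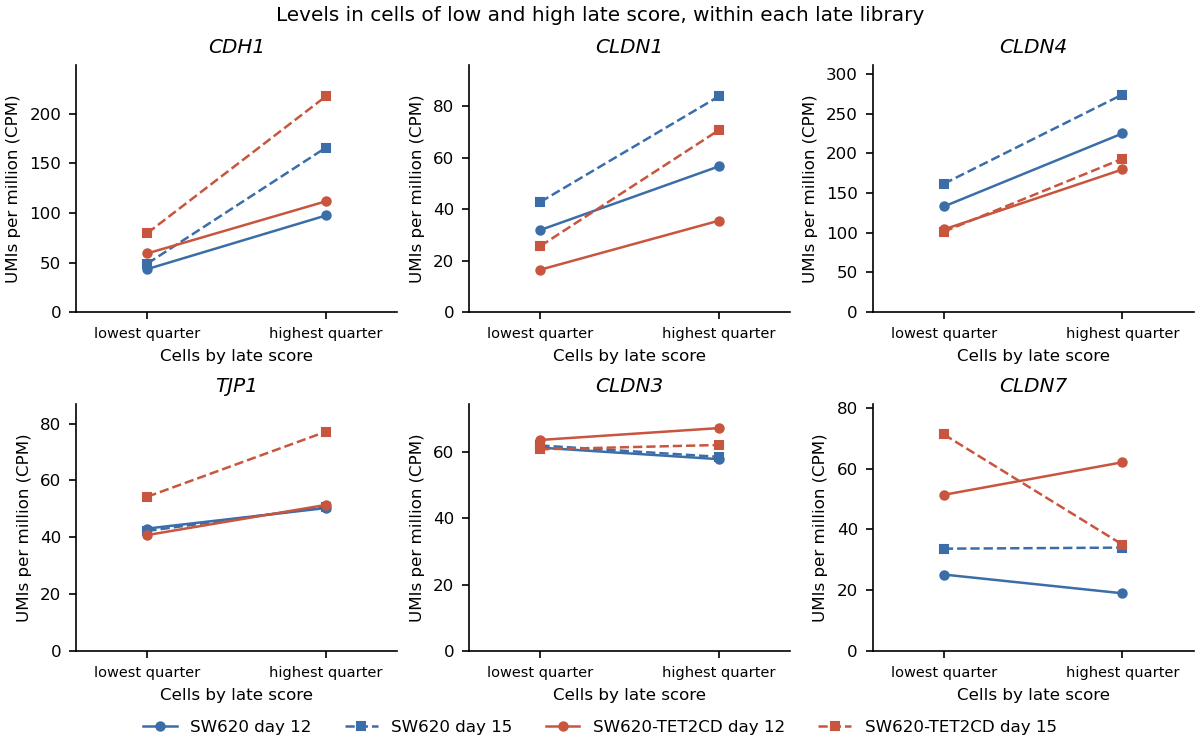
CPM (linear axis from 0) of 6 genes in the 25% of cells with the lowest and the highest late score, joined within each of the 4 libraries of days 12 and 15 (colour for line, line style for day). CDH1, CLDN1, CLDN4 and TJP1 are higher in the high range in all 4 libraries, while CLDN3 lies between 57.8 and 67.2 CPM, and CLDN7 in SW620-TET2CD is 71.3 low against 35.0 high on day 15 but 51.4 against 62.1 on day 12.

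Bulk RNA-seq of day 15 compared cells outside with cells inside the colonies. CDH1 had 105 TPM inside and 88.9 outside in SW620, and 143 inside and 72.6 outside in SW620-TET2CD, lower outside in both lines. The study reports that CDH1 protein, by blot and staining, fell in cells outside the colonies. The fitted difference was -0.67 ± 0.22 (log2, edgeR quasi-likelihood test with line as a block, adjusted p = 0.772). In this fit the other line was the only replicate of location, so lack of a call does not show lack of a difference. Without the filter on low counts CDH1 was called (-0.68, adjusted p = 0.00404 by edgeR), among 472 genes called in that setting. With the filter no gene of 17722 was called by edgeR (0% of genes, 1068 at an unadjusted p under 0.05), and DESeq2 called 22.

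CLDN5 stood out in 1 library. It had 0.04 TPM inside and 0.15 outside in SW620, and 1.57 inside and 25.1 outside in SW620-TET2CD, from expected counts of 2, 6, 39 and 618. The fitted difference was 3.44 ± 0.43 (log2, adjusted p = 0.772 by edgeR quasi-likelihood, 0.00141 by DESeq2). The value rests on the SW620-TET2CD outside library, since SW620 alone had 2 and 6 counts. TET2 was 38.1 TPM inside and 124 outside in SW620-TET2CD, and PECAM1 was 0.30 and 5.06. The other endothelial markers in that outside library were low (KDR 0, CDH5 0.05, VWF 0.42, TIE1 0.42 and EGFL7 1.31 TPM).

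CLDN7 had 66.2 TPM inside and 68.7 outside in SW620, and 144 inside and 151 outside in SW620-TET2CD (outside against inside 0.15 ± 0.10 on the log2 scale, adjusted p = 0.808 by edgeR). CLDN1 had 53.1 and 63.4 TPM in SW620, and 70.2 and 67.8 in SW620-TET2CD. Bulk CLDN1 on day 15 was thus not lower in SW620-TET2CD at either location, whereas in single-cell libraries of day 15 it was 43.5 against 62.8 CPM. In bulk samples fewer cells of a kind and less RNA per cell cannot be told apart.

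With 1 library each, bulk ratios between lines and days are values only. Printed ratios are of TPM as deposited, and a gene was counted past 2-fold where log2(TPM + 1) differed by at least 1. The effective length that scales TPM was not the same in each library. For CLDN7 on day 15 it was 560 bases inside and 550 outside in SW620, and 820 and 975 in SW620-TET2CD. On day 6 it was 728 in SW620 and 910 in SW480. Ratios of CLDN7 TPM therefore also depend on these lengths. Inside the colonies 2 members were at least 2-fold higher in SW620-TET2CD than in SW620 (CLDN7 2.17-fold and CLDN5), against 3.13% of 16361 genes. Outside the same 2 were (CLDN7 2.20-fold), against 5.78% of 16533 genes. SW620 cells inside colonies on day 15 had 4.85 times the CLDN7 TPM of SW620 on day 6, the 1 member counted as higher, where 5.56% of 16431 genes were. The other rises of the single-cell days were smaller or hardly present between these 2 bulk libraries, with ratios of 1.09 for CLDN4 (121 and 132 TPM), 1.41 for CLDN1, 1.47 for CDH1 and 1.73 for CLDN3, and OCLN at 10.2 and 11.2 TPM. CLDN4 in single-cell libraries of SW620 was 64.5 CPM on day 6 and 212 on day 15.

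SW480 and SW620 were compared on day 6. SW480 had 147 TPM of CLDN7 against 13.7 in SW620 (10.8-fold) and 48.0 of TJP1 against 21.9 (2.20-fold). It had 16.1 TPM of CDH1 against 71.1 in SW620 (a ratio of 0.226) and 14.1 of CLDN1 against 37.8 (0.374). CLDN4 (174 and 121 TPM), CLDN3 (15.9 and 11.3) and OCLN (12.8 and 10.2) were within 2-fold. Of 17191 genes, 16.0% were at least 2-fold higher in SW480 and 11.6% at least 2-fold lower, with 2 members on each side, which is near these shares. CDH17 (0.22 against 1.22 TPM) and CLDN5 (0.05 against 0.34 TPM) were also over 2-fold lower in SW480 by TPM as deposited, but not with the pseudocount.

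**Figure D5:**
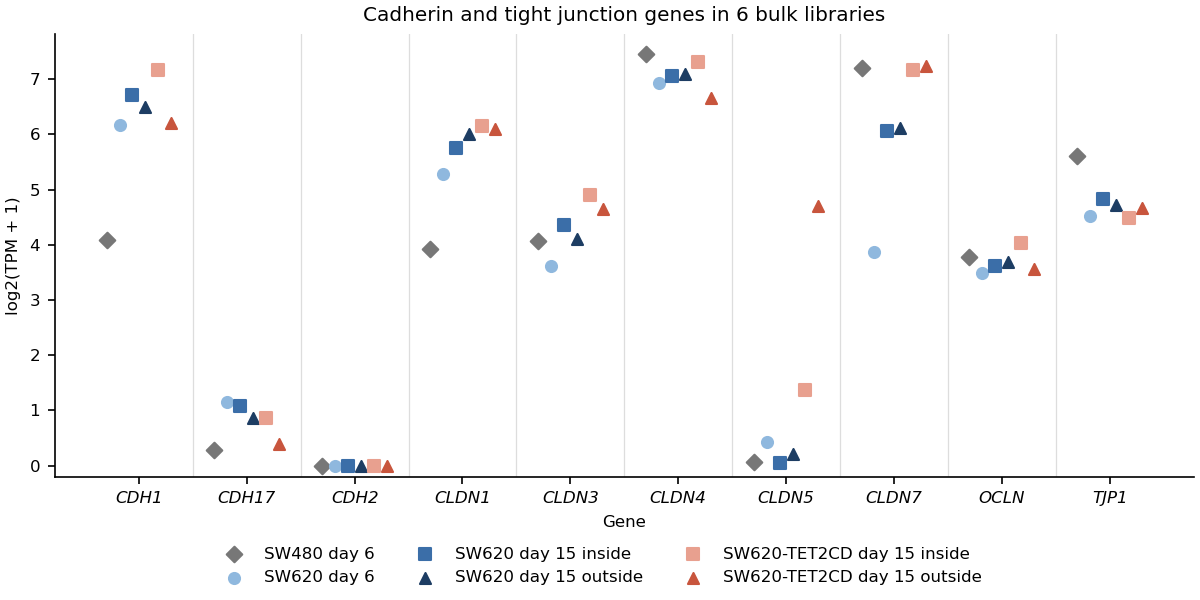
Level of the 10 genes in the 6 bulk libraries as log2(TPM + 1), 1 library per point, with no replicate and so no error. CDH2 is at 0 throughout, CLDN7 is lowest in SW620 on day 6, and CLDN5 stands at 25.1 TPM in SW620-TET2CD cells outside the colonies.

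Genes around these members were read from lists. Of 14 other claudins 7 were tested over the days, and 4 were called higher and 0 lower, with a median log2 change of 0.71 against 0.04 over all genes. Among those called, CLDN9 and CLDN16 had means of only 0.580 and 0.443 CPM. A gene this low may, like CLDN5, have passed the filter on low counts only through the group where it is high, which was not checked. Over all the lists 44 of 68 tested genes were called over the days (64.7%), against 57.0% of all genes tested. Of the 68, 31 were higher and 13 lower, where 29.1% of all genes tested were higher and 27.9% lower. CLDN12 rose by 1.47 ± 0.21 (5.54 to 7.29 CPM early, 13.8 to 25.9 late, edgeR adjusted p = 0.000217) and CLDN11, better known from myelin, by 0.71 ± 0.14 (65.0 to 96.7 early, 110.5 to 154 late, adjusted p = 0.00123).

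Of 23 other tight junction genes 20 were tested, and 8 were called higher and 4 lower (median 0.28). ILDR1, among those called higher, had a mean of only 0.198 CPM. The polarity genes PARD6B (1.01 ± 0.20) and PATJ (0.81 ± 0.14) rose, and the scaffold MAGI3 (-0.59 ± 0.13) and the polarity gene CRB3 (-0.52 ± 0.16) fell (log2, edgeR adjusted p of 0.00137, 0.000762, 0.00305 and 0.0194). Of the 12 other cadherins 7 were tested, and 6 were called higher and 1 lower (median 1.41). Among those called, CDH16, CDHR5 and CDH3 had means of only 0.239, 0.271 and 0.453 CPM, so the limit given for low claudins holds for them too. CDH13, a cadherin without a cytoplasmic tail, rose by 0.60 ± 0.13 (adjusted p = 0.00221).

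Among 11 partners of the adherens junction 9 were tested, and 5 were called higher and 1 lower (median 0.39). JUP (plakoglobin, 1.04 ± 0.20) and CTNND1 (p120 catenin, which keeps E-cadherin at the surface, 0.88 ± 0.13) rose, and NECTIN1 (-0.57 ± 0.13) fell, with edgeR adjusted p of 0.00146, 0.000315 and 0.00302. Desmosome genes were divided. Of 10, 9 were tested, 3 called higher and 3 lower (median -0.12), PPL (0.65 ± 0.16) and DSG2 (0.53 ± 0.13) rising and PKP2 (-0.54 ± 0.12) and PKP3 (-0.37 ± 0.13) falling.

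Known repressors of CDH1 were also divided. Of 7, 5 were tested, 2 called higher and 2 lower (median 0.40). KLF8, among those called higher, had a mean of only 0.118 CPM. ZEB1 rose by 0.81 ± 0.19 (6.83 to 8.49 CPM early, 9.80 to 20.3 late, edgeR adjusted p = 0.0046) while CDH1 rose too, and TCF3 fell by 0.73 on the log2 scale (adjusted p = 0.00041). Of 13 intestinal and epithelial regulators 11 were tested, with 3 called higher and 2 lower (median 0.28). ELF3 (1.13 ± 0.15) and KLF5 (0.50 ± 0.12) rose and ESRP2 (-0.71 ± 0.12) fell.

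Between the lines 9 of the 66 tested genes of these lists were called (13.6%, against 4.21% of all genes tested). There was 1 of 7 other claudins tested, 2 of 19 tight junction genes, 3 of 7 cadherins, 0 of 9 adherens partners, 1 of 9 desmosome genes, 1 of 4 repressors and 1 of 11 regulators. None of these genes reached a mean of 8 CPM. CLDN19, CDH3, PKP1 and GRHL2, all called higher in SW620-TET2CD, had means of only 0.421, 0.453, 0.256 and 0.336 CPM. The limit given for low claudins holds for them too, so the share called is not read as a result about the lists. Along the late score 40 of 59 were called (67.8%), against 49.5% of all genes tested. Of these, 12 of 19 tight junction genes were higher and 1 lower, and 7 of 9 adherens partners were higher and 1 lower. JUP (1.35 ± 0.13), VCL (0.99 ± 0.08, vinculin, an actin linker) and DSG2 (0.67 ± 0.09) were higher in the high range, and CGNL1 (-0.88 ± 0.10) and CDX2 (-0.77 ± 0.17) lower. ZEB1 (0.95 ± 0.14) was higher and SNAI1 (-0.71 ± 0.17) lower. Of 10 regulators tested 4 were higher, KLF5 (1.08 ± 0.07) and KLF4 (0.72 ± 0.11) among them, and 3 lower, CDX2 among them. CLDN11 (-0.25 ± 0.08) and CDH13 (-0.53 ± 0.09), called higher over the days, were called lower along the score. CLDN12 (0.83 ± 0.13), also called higher over the days, was called higher along the score. So was PKP3 (0.61 ± 0.11), called lower over the days. In the interaction and the outside to inside comparison 0 genes of these lists were called by edgeR.

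The genes most like each member over the 8 single-cell libraries were taken by Pearson correlation of log2(CPM + 1) against 8716 other genes with a mean of at least 8 CPM, as a description over 8 points that share day and line. CDH1 was most like WDTC1, PJA1 and TAX1BP1 (r = 0.991 to 0.993) and CLDN4 most like MLLT11, POLD4 and FNTA (0.994 to 0.998). CLDN1 was most like EFNB1, IGFBP4 and SPNS2 (0.977 to 0.985), and CLDN7 most like FAM89A, FUCA1 and LYZ (0.939 to 0.962). OCLN was most like MEX3C, TTC19 and RABGAP1 (0.991 to 0.995), CLDN3 most like RPL7, ICA1 and KDM6B (0.985 to 0.994) and TJP1 most like KAT7, CEP350 and NUDT3 (0.971 to 0.994). Among the 7 members with a mean of at least 8 CPM, CDH1 and CLDN3 were closest (r = 0.937), and CLDN1 and CLDN7 were farthest apart (0.0301).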

How the data were processed

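Single-cell matrices, as deposited, hold counts of UMIs per gene and barcode, which the authors made with Cell Ranger 4.0 against GRCh38 (10x 3' kit). The deposited bulk tables give RSEM expected counts and TPM per gene. The submitters' processing notes name Bowtie, RSEM and mm10 for bulk, while its tables carry human Ensembl identifiers, so their build and annotation are not taken as given. Reads were not aligned again.

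UMIs were summed over kept cells of each library and tested in R 4.3.3 with edgeR 4.0.16 over all genes, by its quasi-likelihood test (two-sided) after filterByExpr and with factors by TMM, with Benjamini-Hochberg adjustment and a threshold of 0.05. Expected counts were rounded for the same test. Standard errors of the edgeR fits were taken as the absolute log2 change over the square root of the test's F statistic. DESeq2 1.42.0 was an alternative, beside upper-quartile factors, no filter, other limits on cells, no block and each library left out. Printed TPM ratios carry no pseudocount, and 2-fold counts used a pseudocount of 1. The tests were tested on simulated data. Doublets were not called. The range of sequencing depth over libraries is given in the report, and intervals cover counting error only. Positions came from GENCODE release 44 by Ensembl identifier.

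The members, lists and the 5 score genes were chosen with earlier results of these data known. In the lists, up to 2 called genes per direction with the largest change and a mean of at least 8 CPM are named, apart from some that are not reported here. Cells with mitotic UMIs and the 10% of cells with most TET2 were alternatives chosen after seeing the data.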

Additional observations from a re-analysis of the deposited data

Results flagged for a closer look

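Among the 4 SW620-TET2CD libraries CDH17 was lowest on day 15 (0.255 CPM, 13 UMIs), set apart from the nearest by 0.845 of the range, above Dixon's limit for 4 samples. Among the 4 late libraries TJP1 was highest in SW620-TET2CD on day 15 (62.5 CPM), apart by 0.876 of the range. Both flags rest on CPM without the TMM factors that the fits use. The SW620-TET2CD library of day 15 had the largest factor (1.17, against 0.925 to 1.07 in the others). The groups were not looked at with these factors. Of 36 groups looked at 2 were apart in this way, and chance gives about 1 in 20.

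In 3 genes the difference between cells of high and low late score had one sign in both libraries of a day or line and the other sign in the remaining ones, and these differences were not tested. CDH17 was higher in the high range in both libraries of day 12, by up to 0.671 CPM, and lower in both of day 15. In SW620-TET2CD on day 12 each range held only 6 CDH17 UMIs. There the sign turned with NDRG1 left out of the score (0.545 high against 0.653 low CPM). CLDN3 was higher in both SW620-TET2CD libraries, by up to 3.58 CPM, and lower in both of SW620. With NDRG1 left out of the score CLDN3 was lower in the high range in SW620-TET2CD too. It then had 65.6 against 68.4 CPM on day 12 and 60.9 against 63.6 on day 15. OCLN was higher in both libraries of day 15, by up to 5.24 CPM, and lower in both of day 12.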

How the results depend on the processing

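Counts of called genes kept within 1.5 times of the reported value under most alternatives. The count over days was 6556 in cells without mitotic UMIs. Leaving out a library gave 8293 to 10590 over days, 416 to 680 between the lines (lowest without either day 9 library, 416 for SW620 and 426 for SW620-TET2CD) and 5274 to 6707 along the score, with 7 to 8, 3 to 4 and 4 members called, and 0 in the interaction and by location. Without a filter 1489 genes and 5 members were called between the lines, 15 and 1 in the interaction and 472 and 2 (CDH1 and CLDN5) by location. Without a block 46 genes and 0 members were called between the lines and 2537 genes along the score. By DESeq2 22 genes and 1 member were called by location. Upper-quartile factors moved the median change of all genes over days from 0.04 to 0.21, with 6536 called higher and 3754 lower, against 5082 and 4878, and along the score gave 2726 and 4324, against 3450 and 3395.

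Of 566 member values under alternatives 42 changed sign, 0 of them called, 15 lost and 8 gained a call. TJP1 over days was 0.14 with upper-quartile factors, 0.13 from days 6 and 15 only and 0.10 in cells without mitotic UMIs, and -0.11 to 0.018 with a library left out. Between the lines it was 0.029 with upper-quartile factors, 0.0004 without the cells with most TET2, and -0.05 to 0.043 with a library left out. CLDN3 along the score was -0.045 with upper-quartile factors, and CLDN7 -0.39 to 0.0401 with a library left out. With a library left out, the interaction of CDH1 was -0.57 to 0.22. The cause was not tested. By location, 3 libraries leave no residual spread with line as a block, so the fits with a library left out used location alone, and their values (CLDN5 -1.82 to 7.14, CLDN7 -0.9987 to 1.25) also hold the difference between the lines. A pseudocount of 0.1 TPM changed 13 of 63 bulk ratios by over 0.1 and reversed 0. Where leaving out a library leaves a lone sample in an arm, that sample is taken to vary like the others. No paired analysis was possible because the labels give no shared replicate numbers, apart from the blocks of day, line or library already in the fits. Depth limits CLDN5, CDH17 and CDH2.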
